A study of Homo sapiens with 6 samples.

Results

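The genes of the core Notch pathway were examined in H1155 cells, a human large cell lung cancer line with neuroendocrine features. The set holds 10 genes chosen by symbol, namely the receptors NOTCH1, NOTCH2 and NOTCH3, the ligands DLL1, DLL3, DLL4, JAG1 and JAG2, and the target genes HES1 and HEY1, out of 58735 genes in the deposited table. Untreated wild-type cells, labelled WT, were compared with untreated cells labelled GFI1-KO, with 3 libraries in each group, all grown in DMEM with fetal bovine serum. According to the study's methods, GFI1 was edited with Cas9 and pairs of guides against its promoter region, and GFP-positive cells were sorted as monoclonal clones. The sources do not say how many clones or separate cultures the 3 libraries of a group represent, so that p-values measure the spread between these libraries only.

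Notch receptors are cut after binding a ligand on a neighbouring cell, and the released intracellular part joins RBPJ in the nucleus to switch on genes such as HES1 and HEY1. HES and HEY proteins are transcriptional repressors, and HES1 is known for repressing proneural genes. In neuroendocrine lung cancer, low Notch activity and high levels of the atypical ligand DLL3, which is known to inhibit rather than activate Notch, commonly go together.

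Library totals ranged from 14882914 to 17692882 counts, and the 3 libraries labelled GFI1-KO were the deepest. The edited gene itself had no lower count where the label was GFI1-KO, with a mean of 168 ± 9.28 normalized counts against 135 ± 19.9 in WT (SD, n = 3 each; log2 fold change 0.31, adjusted p = 0.0273, edgeR, and 0.15 with adjusted p = 0.318 once trends with GC content and length were removed), so every direction below rests on the labels. Of 11 neuroendocrine markers, 9 passed the filter on low counts, whereas GRP and CALCA had under 10 counts in every library. The 5 leukocyte markers together had 2.1 to 6.64 normalized counts in WT and 4.76 to 11.3 in GFI1-KO. Normalized counts are counts divided by an effective library size (TMM) and brought to a common depth. Fewer cells of a type and less RNA per cell cannot be told apart in such bulk libraries.

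All 10 genes passed the filter on low counts and all 10 differed between the groups at an adjusted p of 0.05 or lower (edgeR), and for 9 of them the groups did not overlap. This share has to be read against a background in which 72.4% of the 17514 tested genes were called and 74.4% had groups without overlap. In the libraries labelled GFI1-KO, 7 of the 10 were higher, where 36.5% of all tested genes were, and 3 were lower, where 35.9% were. Their median log2 fold change was 0.42, compared with 0.00 over all tested genes. All 3 receptors and both targets were higher, whereas the ligands divided into DLL1 and DLL3, which were higher, and DLL4, JAG1 and JAG2, which were lower. A second fit, which removes trends of the counts with GC content and gene length and is named the corrected fit here, called 8 of the 10 (60.8% of all tested genes). There 4 were higher, against 30.7% of all tested genes, and 4 lower, against 30.1%, so its values are given beside the uncorrected ones.

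**Figure D1:**
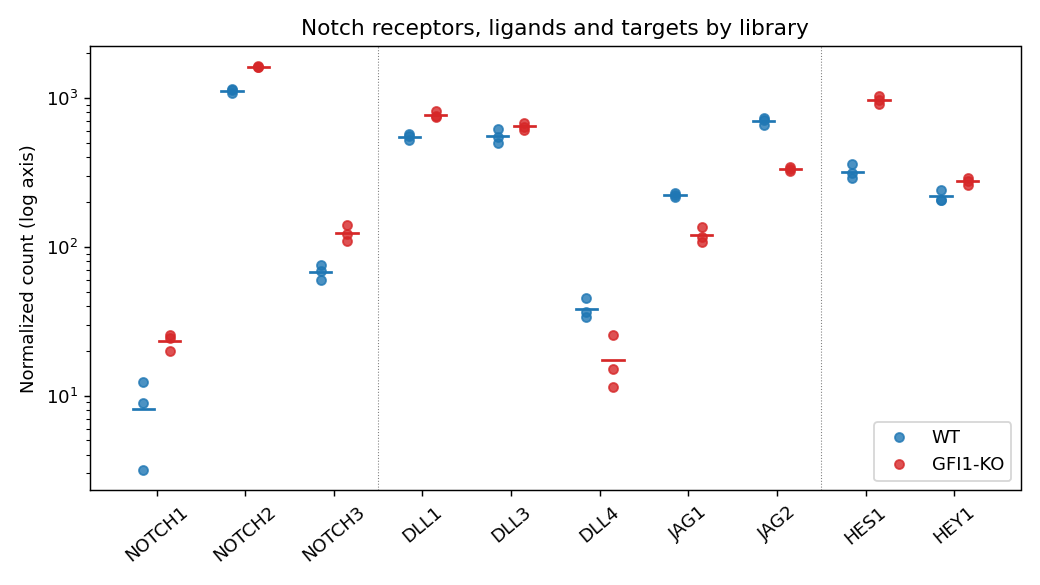
Normalized counts (log axis) of each gene in the 3 libraries labelled WT (blue) and the 3 labelled GFI1-KO (red), with a bar at each group mean and dotted lines between receptors, ligands and targets. The groups lie apart for 9 of the 10 genes and overlap for DLL3, and HES1 shows the widest upward gap among the genes with over 100 counts.

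HES1 changed most among the well-counted members. It encodes a basic helix-loop-helix repressor and is a direct target of the Notch-RBPJ complex. The gene lies on chromosome 3 from 194136145 to 194138732 on the plus strand. Its promoter, the 250 bases before and the 50 bases after the RefSeq start (GRCh38.p14, chr3:194135898-194136197, plus strand), is shown because it held the only copy of the searched RBPJ motif found among these promoters. Capitals mark that motif.

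HES1 promoter: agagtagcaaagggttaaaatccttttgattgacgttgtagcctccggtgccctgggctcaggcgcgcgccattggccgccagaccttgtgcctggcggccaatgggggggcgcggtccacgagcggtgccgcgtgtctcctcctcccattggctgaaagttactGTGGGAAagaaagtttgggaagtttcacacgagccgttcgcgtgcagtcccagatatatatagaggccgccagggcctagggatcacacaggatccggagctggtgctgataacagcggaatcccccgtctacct

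The table of RefSeq promoters held 7 of the 10 genes, namely DLL4, HES1, JAG1, JAG2, NOTCH1, NOTCH2 and NOTCH3. The motif GTGGGAA, or its reverse complement TTCCCAC, which RBPJ is known to bind, occurred in 1 of these 7 windows, that of HES1, where its first base lay at position -85 from the start on the strand of the gene. It occurred in 6.25% of all 35116 windows of the same length. AAATCAC, which contains the AATC core that GFI1 is known to bind, and the E-box CACGTG, searched in the same way on both strands, were found in none of the 7 windows, and in 3.14% and 7.26% of all windows. The GFI1 search was for the whole of AAATCAC, and the shorter AATC core alone does occur in the HES1 window shown above. Such matches are letters in a window and not measured sites.

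The libraries labelled WT had 311, 289 and 358 normalized counts of HES1, and those labelled GFI1-KO had 913, 1025 and 972. The lowest GFI1-KO library thus lay far above the highest WT library. The mean rose from 319 ± 35.2 to 970.1 ± 56.3 (SD, n = 3 each), 3.03-fold, with a log2 fold change of 1.60 (95% interval 1.45 to 1.75, adjusted p = 1.3e-16, edgeR). Of all tested genes, 3.81% were called with an increase at least as large. The corrected fit gave a log2 fold change of 1.42 (adjusted p = 1.3e-14), and leaving out single libraries gave 1.53 to 1.68. HES1 overlaps no other annotated gene and shares no 50-base word with one.

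HEY1, a related repressor of the same family on chromosome 8 (79764010 to 79767863, minus strand), rose by much less. It had 242, 205 and 207 normalized counts in WT and 260.1, 291 and 277 in GFI1-KO. The groups did not overlap, but the lowest GFI1-KO library was close to the highest WT library. The mean rose from 218 ± 20.7 to 276 ± 15.4 (SD, n = 3 each), giving a log2 fold change of 0.34 (95% interval 0.14 to 0.54, adjusted p = 0.00251, edgeR). In the corrected fit it was 0.42 (adjusted p = 4.5e-04).

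NOTCH2 was by far the most abundant receptor. Its counts were 1152, 1083 and 1128 after normalization in WT and 1624, 1620 and 1636 in GFI1-KO. The GFI1-KO libraries were nearly alike and all above WT. The mean rose from 1121 ± 35.2 to 1626 ± 8.38 (SD, n = 3 each), a 1.45-fold increase (log2 fold change 0.54, 95% interval 0.45 to 0.63, adjusted p = 2.7e-11, edgeR). NOTCH2 (chromosome 1, from 119911553 to 120069626, minus strand) is partly uncertain, because 8.69% of its 50-base words are shared with other genes, the NOTCH2NL copies among them. NOTCH2NLA itself had only 6 to 13 counts in the WT libraries and 5 to 8 in the GFI1-KO libraries. No other gene of the deposited table bore a NOTCH2NL name, so counts of the other copies were not examined.

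NOTCH3 (chromosome 19, from 15159038 to 15200981) was far lower in level. It had 68.6, 59.8 and 75.6 normalized counts in WT against 139, 109.9 and 122 in GFI1-KO, without overlap. The mean rose from 68 ± 7.92 to 124 ± 14.7 (SD, n = 3 each), or 1.82-fold (log2 fold change 0.86, 95% interval 0.54 to 1.18, adjusted p = 2.1e-05, edgeR). In the corrected fit its log2 fold change was 0.29 and no longer passed (adjusted p = 0.116). NOTCH3 is itself known as a Notch target as well as a receptor.

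NOTCH1 (chromosome 9, from 136494433 to 136545786) was close to the detection limit, which was set at 3 counts per library. The raw counts were 12, 8 and 3 in WT and 21, 27 and 26 in GFI1-KO. The 95% Poisson interval of the highest WT library, 6.2 to 21, overlapped those of all 3 GFI1-KO libraries. The interval of the WT library with 8 counts, 3.45 to 15.8, overlapped that of the lowest GFI1-KO library, 13 to 32.1. The interval of the lowest WT library, 0.619 to 8.77, lay below those of all 3 GFI1-KO libraries. Such intervals cover counting error only. The log2 fold change was 1.51 (95% interval 0.70 to 2.32, adjusted p = 0.0013, edgeR) and 0.95 in the corrected fit (adjusted p = 0.042). It ranged from 1.12, without WT replicate 3, to 1.95, without WT replicate 1.

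Levels were compared between genes as FPKM, that is, counts scaled by the deposited gene length and by the library total. The 3 receptors summed to 4.53 ± 0.167 FPKM in WT and 6.73 ± 0.0871 in GFI1-KO (SD, n = 3 each). NOTCH2 made up 89.3% ± 0.557 of the sum in WT and 86.3% ± 0.978 in GFI1-KO (SD, n = 3 each). The share of NOTCH3 was 9.67% ± 0.903 and 11.7% ± 1.25 (SD, n = 3 each), with overlapping libraries (exact two-sided permutation test, p = 0.2). The share of NOTCH1 was 1.04% ± 0.582 and 2.01% ± 0.275 (SD, n = 3 each). For the shares of NOTCH1 and NOTCH2 the groups did not overlap, and the exact two-sided permutation test gave p = 0.1, below which 3 against 3 libraries cannot go.

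JAG2, a Serrate-type ligand on chromosome 14 (105140981 to 105168824, minus strand), had the best measured decrease. It had 663, 732 and 714 normalized counts in WT and 331, 321 and 343 in GFI1-KO. All GFI1-KO libraries were thus well below the WT range. The mean fell from 703 ± 35.4 to 331 ± 10.7 (SD, n = 3 each), 2.12-fold (log2 fold change -1.08, 95% interval -1.22 to -0.94, adjusted p = 1.2e-13, edgeR). Of all tested genes, 6.28% were called with a decrease at least as large. The corrected fit gave a larger decrease, with a log2 fold change of -1.71 (adjusted p = 1.1e-16). Of the 50-base words of JAG2, 6.53% are shared with an overlapping transcript on the same strand.

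JAG1, the other Serrate-type ligand, on chromosome 20 from 10637684 to 10673999, fell alongside it. It had 229, 223 and 217 normalized counts in WT and 116, 108 and 135 in GFI1-KO, again without overlap. The mean fell from 223 ± 6.06 to 119.6 ± 13.6 (SD, n = 3 each), 1.86-fold (log2 fold change -0.90, 95% interval -1.13 to -0.66, adjusted p = 8.6e-08, edgeR). The corrected log2 fold change was -0.89.

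DLL4, a Delta-type ligand best known from endothelial cells, lies on chromosome 15 from 40929333 to 40939073 and was the lowest ligand. Raw counts of 44, 33 and 32 in WT stood against 16, 12 and 27 in GFI1-KO. The groups did not overlap, but the GFI1-KO library with 27 counts (95% Poisson interval 17.8 to 39.3) had an interval that overlapped those of all 3 WT libraries. The interval of the GFI1-KO library with 16 counts, 9.15 to 26, also overlapped those of the WT libraries with 33 and 32 counts. The log2 fold change was -1.14 (95% interval -1.76 to -0.52, adjusted p = 0.00146, edgeR), and -1.66 in the corrected fit. The endothelial marker PECAM1 moved with it, from 455 ± 29.2 to 209 ± 7.91 normalized counts (SD, n = 3 each), and made up most of the sum of the 5 endothelial markers, which was 445 to 502 in WT and 222 to 249 in GFI1-KO. CDH5, the other endothelial marker that could be tested, had 20 ± 4.87 and 27.8 ± 6.86 normalized counts (SD, n = 3 each) and was not called (log2 fold change 0.47, adjusted p = 0.176, edgeR). The endothelial markers VWF, TIE1 and KDR had under 10 counts in every library.

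The Delta-type ligands DLL1 and DLL3 did not fall in the uncorrected fit. DLL1, an activating ligand on chromosome 6 (170282206 to 170306565), had 556, 524 and 571 normalized counts in WT and 753, 821 and 746 in GFI1-KO. The groups were apart, with a mean of 550.2 ± 24.2 rising to 773 ± 41.2 (SD, n = 3 each; log2 fold change 0.49, 95% interval 0.36 to 0.62, adjusted p = 8.3e-08, edgeR). In the corrected fit, DLL1 had a log2 fold change of -0.09 (adjusted p = 0.195). FAM120B overlaps DLL1 on the other strand and shares 8.52% of its 50-base words. Since the strand setting of the counting is not given in the sources used here, reads of the pair cannot be told apart in the overlap.

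DLL3 (chromosome 19, from 39498895 to 39508481) gave no stable direction. It had 549.8, 621 and 498 normalized counts in WT and 682, 611 and 637 in GFI1-KO, so that the lowest GFI1-KO library lay below the highest WT library. The means of 556 ± 62 and 644 ± 36 (SD, n = 3 each) gave a log2 fold change of 0.21 (95% interval 0.06 to 0.36, adjusted p = 0.0104, edgeR). DESeq2 gave an adjusted p of 0.0517, and the call was also lost without WT replicate 3 (0.13, adjusted p = 0.0945) or without GFI1-KO replicate 1 (0.17, adjusted p = 0.0662). In the corrected fit, its log2 fold change turned to -0.56 (adjusted p = 7.8e-08).

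**Figure D2:**
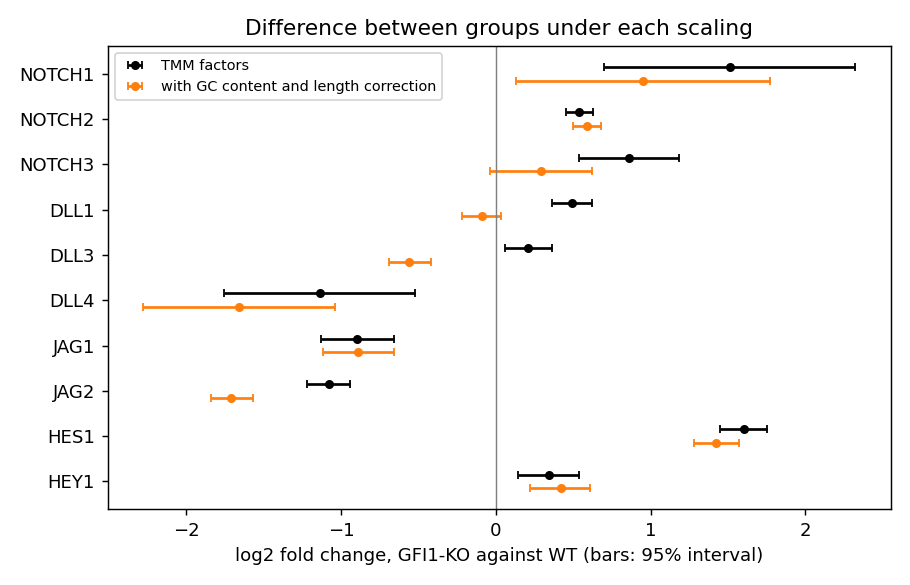
Log2 fold change of each gene, GFI1-KO against WT, with its 95% interval, from the fit with TMM factors (black) and from the fit that also corrects for GC content and gene length (orange). Both put NOTCH1, NOTCH2, HES1 and HEY1 above 0 and DLL4, JAG1 and JAG2 below 0, while DLL1 and DLL3 cross over. The corrected intervals of NOTCH3 (-0.04 to 0.62) and DLL1 (-0.22 to 0.03) include 0.

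Across all tested genes, fold changes followed the GC content of the transcripts, with a Spearman rho of 0.574 that was 0.0283 after the correction (genes are not independent replicates). The members leaned to high GC content, and only HEY1 lay below the median of the tested genes. HEY1, NOTCH2, JAG1 and HES1 had a GC content of 45.0%, 49.4%, 49.6% and 50%, near the median of 48.2% over the tested genes. DLL1, DLL4, NOTCH3, NOTCH1, JAG2 and DLL3 lay between 59.5% and 64.9%, above the upper quartile of 56.2%, and the log2 fold changes of all 6 were lower after the correction. NOTCH2, JAG1 and HES1 thus had nearly the same GC content and log2 fold changes of 0.54, -0.90 and 1.60. Whether the GC trend is of technical or other origin was not tested.

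The 5 ligands summed to 31.9 ± 1.13 FPKM in WT and 33.2 ± 0.381 in GFI1-KO (SD, n = 3 each), with overlapping libraries (exact two-sided permutation test, p = 0.2). FPKM takes no account of the GC trend, and in the corrected fit 0 of the 5 ligands were higher and 4 were lower. The sums and shares given here thus hold for uncorrected values only. The parts of the ligand sum lay further apart than the sum itself. JAG1 and JAG2 together made up 25.5% ± 0.925 of the ligand FPKM in WT and 11.7% ± 0.642 in GFI1-KO (SD, n = 3 each), without overlap (p = 0.1 by the same exact permutation test). The share of DLL1 was 33.1%, 29.8% and 34.8% in WT and 41.6%, 46.1% and 42.2% in GFI1-KO (exact permutation p = 0.1). The share of DLL3 was 40.4% ± 3.08 and 44.4% ± 2.07 (SD, n = 3 each), with overlapping libraries (exact permutation p = 0.2).

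DLL3 and JAG2 have almost the same GC content, 64.9% and 64.1%, and their ratio was formed for that reason after the values had been seen. DLL3 had 2.02, 2.07 and 1.7 times the FPKM of JAG2 in WT and 5.04, 4.65 and 4.54 times in GFI1-KO. Their log2 fold changes differed by 1.30 in the uncorrected fit and by 1.15 in the corrected one. DLL3 was thus higher relative to JAG2 in both fits, although the direction of DLL3 itself did not hold.

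**Figure D3:**
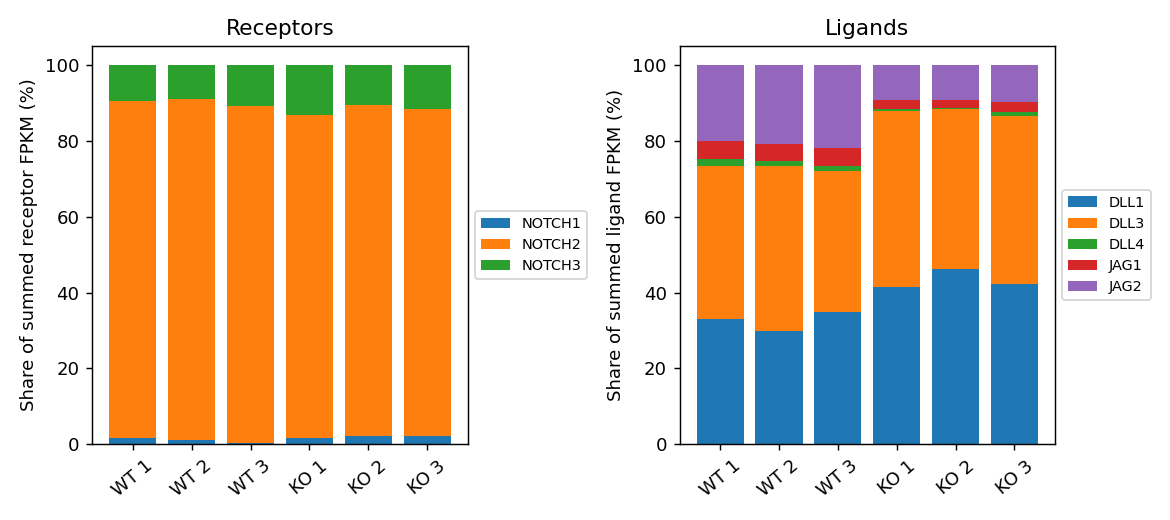
Share of each receptor (left) and each ligand (right) in the summed FPKM of its family, in percent, for the 3 libraries labelled WT and the 3 labelled GFI1-KO (KO). NOTCH2 fills 85.2% or more of every receptor bar, and the JAG2 segment is 19.9% to 21.9% in WT and 9.1% to 9.77% in GFI1-KO.

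In WT, the order of mean FPKM was DLL3 (12.9), DLL1 (10.4), HES1 (9.4), JAG2 (6.67), HEY1 (4.09), NOTCH2 (4.05), JAG1 (1.46), DLL4 (0.489), NOTCH3 (0.439) and NOTCH1 (0.0473). Of neighbours in this order, DLL1 and HES1, HEY1 and NOTCH2, and DLL4 and NOTCH3 did not differ beyond the range of their libraries. In GFI1-KO, HES1 stood first with 28.2, followed by DLL3 (14.8), DLL1 (14.4), NOTCH2 (5.81), HEY1 (5.12), JAG2 (3.11), NOTCH3 (0.791), JAG1 (0.772), DLL4 (0.219) and NOTCH1 (0.135). There the ranges overlapped between DLL3 and DLL1, between NOTCH3 and JAG1, and between DLL4 and NOTCH1. HES1 thus went from rank 3 to rank 1, and JAG2 from rank 4 to rank 6.

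A list of 57 further genes of the pathway was grouped by role, of which 56 were tested, 31 being higher and 12 lower in GFI1-KO. These counts, and those of each role below, stand against the 36.5% and 35.9% of all tested genes given above (30.7% and 30.1% in the corrected fit). The lists by role are short, and some of their shares lie near these. Their median log2 fold change was 0.27. The corrected fit called 25 of them higher, 14 lower, and its median was 0.08. The Notch target HES5 had no count in any library and was not tested.

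Of the other receptor and the atypical ligands, 4 of 5 were higher in both fits. EGFL7, a secreted protein that can bind Notch, rose from 50.3 ± 8.24 to 233 ± 13.6 normalized counts (SD, n = 3 each), giving a log2 fold change of 2.21 (1.37 in the corrected fit). DLK1, a Delta-like protein without the domain that activates receptors, rose from 1302, 1368 and 1229 to 2901, 2838 and 2784 normalized counts (log2 fold change 1.13, corrected 0.83). NOTCH4 had 18.9 to 36.9 normalized counts in WT and 29.4 to 46.1 in GFI1-KO and was not called (log2 fold change 0.26, adjusted p = 0.416, edgeR).

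For the maturation of receptors, 3 of 6 genes were higher and 2 lower (2 and 3 in the corrected fit). FURIN, which cleaves the receptor precursor, had a log2 fold change of 0.89, and RFNG, a Fringe glycosyltransferase, of 0.74, which were 0.30 and -0.02 in the corrected fit. POGLUT1, which adds O-glucose to Notch, had -0.54, or -0.17 in the corrected fit. For the cleavage of receptors, 4 of 8 were higher and 2 lower (6 and 1 in the corrected fit). Among the subunits of γ-secretase, PSENEN rose from 50.8 ± 19 to 185 ± 11.3 normalized counts (SD, n = 3 each). The alternative subunits APH1A and APH1B went in opposite directions. APH1A rose from 1326 ± 5.01 to 2203 ± 19.5 (SD, n = 3 each), and APH1B fell from 377 ± 19 to 157 ± 23.1 (SD, n = 3 each). The corrected log2 fold changes of PSENEN, APH1A and APH1B were 1.77, 0.31 and -0.94. ADAM17, a sheddase, had a log2 fold change of -0.20, which was 0.33 in the corrected fit.

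Ubiquitin ligases that act on ligands differed in direction, with 1 of 4 genes higher and 2 lower in each fit. Only NEURL1 was lower in both fits. It had a log2 fold change of -0.87 (adjusted p = 7.3e-04, edgeR), or -1.54 in the corrected fit (adjusted p = 9.0e-07, edgeR). Its counts were low, with means of 63.6 normalized counts in WT and 34.7 in GFI1-KO. MIB2 had a log2 fold change of 0.94, or 0.25 in the corrected fit. MIB1 had -0.54, or -0.06 in the corrected fit (adjusted p = 0.128, edgeR). NEURL1B was not called (-0.09, adjusted p = 0.184, edgeR) but was lower in the corrected fit (-0.52, adjusted p = 1.5e-08, edgeR). Of 9 genes for the turnover of receptors, 5 were higher and 4 lower (3 and 2 in the corrected fit). FBXW7, which marks the Notch intracellular part for degradation, fell from 707 ± 43.5 to 374 ± 13.1 normalized counts (SD, n = 3 each), giving a log2 fold change of -0.92 (-0.74 in the corrected fit). NEDD4, another ubiquitin ligase, had a log2 fold change of -0.60, and the Deltex genes DTX3 and DTX2 had 0.67 and 0.50. In the corrected fit the values of NEDD4, DTX3 and DTX2 were -0.05, 0.15 and -0.10.

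Of 9 genes of the nuclear complex, 7 were higher and 1 lower, but 3 higher and 2 lower in the corrected fit. The gene that fell in the uncorrected fit was RBPJ, the DNA-binding partner of Notch, with 2448, 2417 and 2618 normalized counts in WT and 1533, 1580 and 1487 in GFI1-KO. This was a log2 fold change of -0.70 (adjusted p = 3.6e-14, edgeR), or -0.12 in the corrected fit (adjusted p = 0.0126). The coactivators MAML2 and EP300 rose with log2 fold changes of 0.85 and 0.58, and 1.07 and 0.60 in the corrected fit. Of 10 corepressor genes, 5 were higher and 1 lower (6 and 2 in the corrected fit). TLE1, a Groucho-type partner of HES1, rose from 272 ± 38.8 to 706 ± 23 normalized counts (SD, n = 3 each), giving a log2 fold change of 1.37 (0.90 in the corrected fit). CTBP1, another corepressor, fell by 0.66 on the same scale, with a corrected log2 fold change of -1.15.

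Other genes known as Notch targets did not move as HES1 did. Of 6 on the list, 5 were tested, 2 were higher and none lower. HES4 had a log2 fold change of 0.92 and HEYL of 0.40, but in the corrected fit these were -0.04 and -0.01 and did not pass (adjusted p = 0.73 and 0.962, edgeR). HES7, HEY2 and NRARP were not called, with log2 fold changes of -0.12, -0.11 and -0.26. In the corrected fit HES7 and NRARP were lower, with log2 fold changes of -0.87 (adjusted p = 5.5e-04) and -0.88 (adjusted p = 2.0e-05, edgeR).

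**Figure D4:**
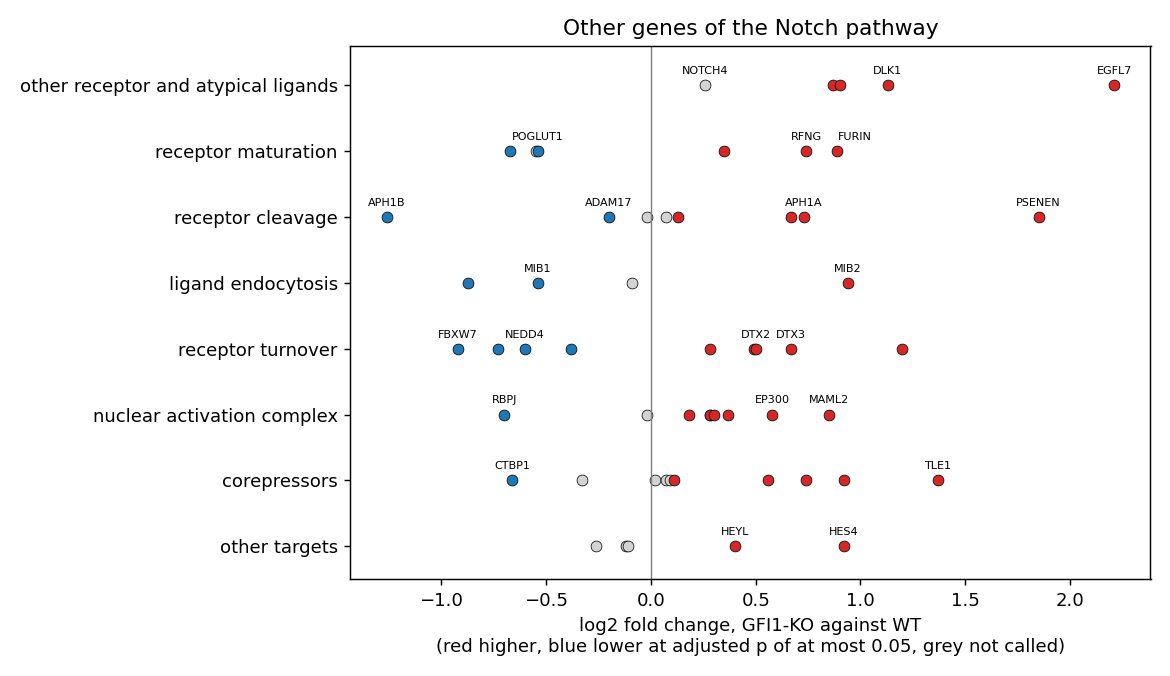
Log2 fold change, GFI1-KO against WT, of the 56 tested further genes of the Notch pathway, 1 point a gene, grouped by role, with the named genes labelled. Red points were higher and blue points lower at an adjusted p of 0.05 or less (edgeR), and grey points were not called. EGFL7 and PSENEN lie farthest to the right and APH1B farthest to the left.

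Proneural and neuroendocrine transcription factors, which HES proteins are known to repress or act beside, made up a list of 12, of which 9 were tested. In GFI1-KO 7 were lower and 1 higher, against 35.9% and 36.5% of all tested genes. In the corrected fit 6 were lower and 1 higher, against 30.1% and 30.7%. The 7 included INSM1, whose groups overlapped and whose log2 fold change was -0.08 (adjusted p = 0.037, edgeR, corrected -0.80). NEUROD4 (-0.35, corrected -0.00) and NHLH2 (-0.24, corrected -0.14) were called lower in the uncorrected fit only. NHLH1 (-0.63, corrected -1.07) was called lower in the corrected fit only. DESeq2 called 5 factors lower, and 5 were also lower where a minimum of 10 counts was required in all libraries. HES6, a relative of HES1 that counteracts it and favours neuronal fate, fell from 597 ± 83.4 to 406 ± 24.2 normalized counts (SD, n = 3 each), with a log2 fold change of -0.55 (-1.41 in the corrected fit).

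NEUROD1 remained abundant, with 5905 ± 97.8 and 4476 ± 116 normalized counts (SD, n = 3 each), giving a log2 fold change of -0.40 that was -0.10 in the corrected fit (adjusted p = 0.00888, edgeR). NEUROD2 was the gene that rose, with a log2 fold change of 0.74 (0.23 in the corrected fit). Of 3 factors of non-neuroendocrine lung cancer cells, 2 could be tested, and these were higher in both fits. Of all tested genes, 36.5% were higher, or 30.7% in the corrected fit. REST, a repressor of neuronal genes that Notch is known to induce in neuroendocrine tumours, had 215, 174 and 169 normalized counts in WT and 278, 264 and 264 in GFI1-KO (log2 fold change 0.53, adjusted p = 4.7e-05, edgeR, corrected 1.00). YAP1, the Hippo pathway coactivator, rose from 17.9 ± 6.7 to 242 ± 12.6 normalized counts (SD, n = 3 each), giving a log2 fold change of 3.74 that was no smaller in the corrected fit. POU2F3 had at most 3 counts in a library and was not tested.

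**Figure D5:**
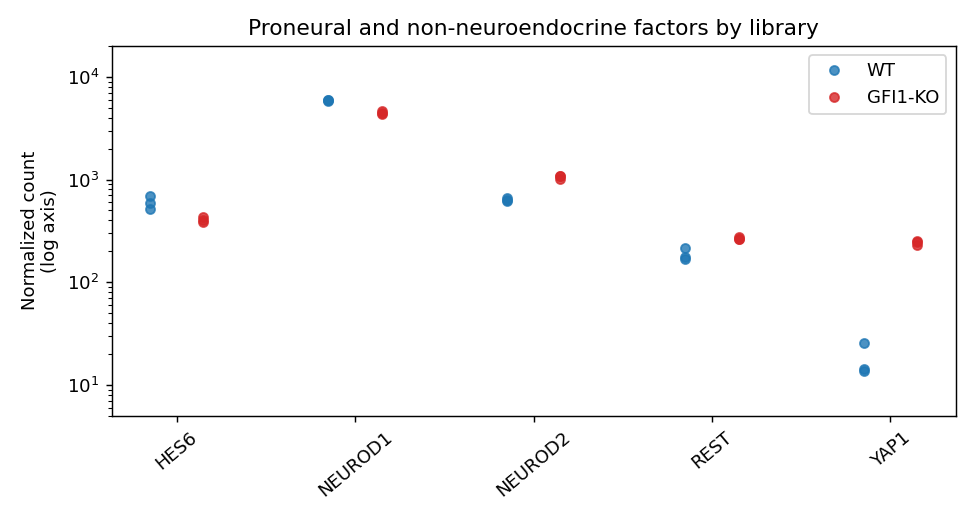
Normalized counts (log axis) of proneural factors (HES6, NEUROD1, NEUROD2) and non-neuroendocrine factors (REST, YAP1) in the 3 libraries labelled WT (blue) and the 3 labelled GFI1-KO (red). HES6 and NEUROD1 lie lower in GFI1-KO, NEUROD2 and REST higher, and YAP1 shows the widest gap, from 13.6 to 25.6 in WT to 228 to 253 in GFI1-KO.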

How the data were processed

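Bulk RNA-seq of 6 libraries, 3 in each group, was analysed. As the paper describes it, poly-A RNA was sequenced, reads were aligned by Hisat2 (GRCh38/hg38) and genes counted by featureCounts, whereas the submitters' processing notes name Bowtie2 and HTSeq. The authors deposited raw counts per gene, without normalization. Their other deposited values, each gene's start, end and length in bases, come from an annotation not given in the sources used here, as is the strand setting. Of the genes, 99.1% have an identifier in GENCODE release 44, from which GC content (longest transcript), overlaps and shared 50-base words were taken.

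Counts were fitted over all genes with edgeR 4.0.16 (R 4.3.3), using the quasi-likelihood test after filterByExpr and TMM scaling, with p-values adjusted after Benjamini and Hochberg, and called at an adjusted p of at most 0.05 without a fold minimum. The study's own test, DESeq2 (version 1.42.0), and limma-voom (limma 3.58.1) were alternatives, beside other size factors and filters, each library left out, the replicate number as a block, a threshold of 0.01, and offsets for GC content and length from natural splines with 5 degrees of freedom per library. Standard errors were derived from the F statistic of each gene. The fit was tested on simulated data with 200 changed genes and no GC trend. Far more genes were called in the real data, so this test does not cover their conditions. The members and lists were chosen with earlier results of these data known. Besides the members and GFI1, the rule names from each list at most 2 called genes of the largest increase and 2 of the largest decrease with a mean of at least 100 normalized counts, and 5 genes by name, among them NOTCH4, RBPJ, NEUROD1 and REST. Some genes that the rule names are not reported here. Other genes were chosen after their values were seen. TLE5 was matched by identifier. Total counts between 14882914 and 17692882 set the precision.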

Additional observations from a re-analysis of the deposited data

How the results depend on the processing

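The correction for GC content and length changed the results most. It lowered the number of higher members from 7 to 4, with or without the replicate block, and the log2 fold changes of DLL1 (-0.09), DLL3 (-0.56), RFNG (-0.02), ADAM17 (0.33), DTX2 (-0.10), HES4 (-0.04), HEYL (-0.01) and NOTCH4 (-0.27, or -0.26 with the block) took the opposite sign under it, while NOTCH3, MIB1 and NEDD4 kept their sign and lost the call. Of the genes with the opposite sign, only DLL3 and ADAM17 were called in the corrected fit. The cause of these changes was not tested. With each library left out in turn, the number of higher members was 6 to 7 and of lower members 3, and NOTCH4, never called, ranged from -0.00 to 0.42. DESeq2, a threshold of 0.01 and a minimum of 10 counts required in all libraries also gave 6 higher members, the last because it removed NOTCH1. Other size factors, other tests and the filters changed no sign of a member. Of 623 log2 fold changes of named genes recomputed under alternatives, 596 kept their sign and their side of the threshold. The replicate numbers share no stated origin, the deviations of same-numbered libraries correlated with r between -0.00362 and 0.0238, and the replicate block (7 higher and 3 lower members, 12573 genes in all against 12680) changed no call of a member. Shares computed from counts without gene length moved most for JAG2 (-16.4 against -11.6 percentage points) and kept their directions. NOTCH1 and DLL4 were limited by their low counts.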

Other observations

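Neuroendocrine markers went in both directions in the libraries labelled GFI1-KO. Of the 9 tested, 7 were higher and 2 lower, against 36.5% and 35.9% of all tested genes (4 and 4 in the corrected fit, against 30.7% and 30.1%), and together the 11 markers had 31272 to 31484 normalized counts in WT and 49418 to 50992 in GFI1-KO. The genes named next were picked with their values in view. Of the summed counts, SCG2 alone held 8093 ± 12.6 in WT and 18210 ± 208 in GFI1-KO (SD, n = 3 each). SCG3 was lower in both fits (log2 fold change -0.71, corrected -0.42). ENO2 and UCHL1 were slightly higher (0.16 and 0.14) but lower in the corrected fit (-0.17 and -0.46), where CHGA was level (-0.01). SYP, a synaptic vesicle protein, rose from 4221 ± 55.5 to 9759 ± 217 normalized counts (SD, n = 3 each), and NCAM1, a neural adhesion molecule, from 1897 ± 6.04 to 4112 ± 39.6 (SD, n = 3 each). The corrected fit gave log2 fold changes of 1.05 and 1.21 for them. DDC, the decarboxylase that makes dopamine and serotonin, fell from 237 ± 23.3 to 24.6 ± 11.6 normalized counts (SD, n = 3 each), with a log2 fold change of -3.26 (adjusted p = 4.6e-14, edgeR), or -3.39 in the corrected fit. The 5 fibroblast markers together had 3140 to 3224 normalized counts in WT and 2075 to 2163 in GFI1-KO, with DCN at 0 in every library. COL1A2 made up most of this sum, with 2912 ± 49.6 and 2008 ± 43.1 (SD, n = 3 each; log2 fold change -0.54, corrected -0.15). PDGFRB fell from 141 ± 1.41 to 14.8 ± 1.17 (SD, n = 3 each), and COL1A1 from 116 ± 5.37 to 87.2 ± 6.25 (SD, n = 3 each). LUM had under 10 counts in every library.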
